A study of Homo sapiens with 6 samples.

Results

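GFI1 and GFI1B are the zinc finger repressors that work with the histone demethylase LSD1, and 8 genes of this repressor machinery were followed in RNA-seq of day 8 cells from human embryonic stem cells labelled WT or MSX2-/-. They are GFI1 and GFI1B, KDM1A, which encodes LSD1, the CoREST genes RCOR1, RCOR2 and RCOR3, and the histone deacetylase genes HDAC1 and HDAC2. The 8 genes were taken by symbol from the 58364 genes of the deposited table, and all 8 were among the 15895 genes tested, whose mean over the libraries reached 0.5 FPKM. FPKM counts fragments per kilobase of transcript, scaled to all fragments mapped in the library, so levels can be compared between genes. GFI1B stood on 2 rows of the table, and the row with the higher mean was used, since the other reached 0.0160 FPKM at most.

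GFI1 and GFI1B bind DNA through their zinc fingers, and a short N-terminal SNAG domain brings in LSD1, a CoREST protein and HDAC1 or HDAC2, which remove methyl and acetyl groups from histone H3. In the embryo, RUNX1 turns on both repressor genes in hemogenic endothelium, and the repressors with LSD1 shut down the endothelial program while blood cells emerge by the endothelial-to-hematopoietic transition (EHT). GFI1B is later a factor of the erythroid and megakaryocytic lineages, and GFI1 is best known in blood stem cells, granulocytes and lymphocytes.

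The study asked what loss of MSX2, a homeobox gene, does to hematopoietic differentiation of the H1 embryonic stem cell line. The 6 libraries are 2 of H1 WT cells and 2 of each of 2 MSX2-/- clones, called 1# and 2#, all collected at day 8. By the methods, a lentiviral CRISPR/Cas9 vector against the second exon of MSX2 was used, followed by puromycin and picking of colonies grown from single cells, and the same steps are not described for WT. A library is named here by its line and its replicate number, 1 or 2, and the labels give all libraries of replicate 1 the letter F and those of replicate 2 the letter S, without saying what the letters mean. CD31+ cells are named in the labels for the MSX2-/- libraries but not for WT, and the paper's text speaks of CD31+ cells of both genotypes. The labels' growth protocol speaks of HAND1 overexpression, and no label says which library that would be. The labels number the clones 7 and 10, and which of them is 1# or 2# is not given. The labels do not say whether replicates came from separate cultures, so p-values measure the spread between these libraries, which may be technical.

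The labelled cell type and genotype were looked at first. PECAM1, which encodes CD31, lay between 186 and 258 FPKM in all 6 libraries, and the early blood marker SPN (CD43) between 6.19 and 17.4 FPKM. SPN was not level between the labels, and all 4 libraries labelled MSX2-/- were above both WT libraries. PTPRC (CD45), a marker of later blood cells, stayed at or below 0.115 FPKM. MSX2 mRNA was at 3.64 and 1.44 FPKM in WT and between 5.62 and 31.8 FPKM in the libraries labelled MSX2-/-, above both WT libraries in all 4. Its log2 fold change was 1.99, which passed with the replicate block described below (limma, adjusted p = 0.0107) and not without it (adjusted p = 0.309). The level of the targeted gene thus goes against a loss of its mRNA, and the MSX2 alleles were not analysed here. The paper reports that sequencing of DNA from the clones showed a frameshift and deletion in the targeted gene. An mRNA level does not give the sequence of the alleles, so that report was not tested. MSX2-/- stands below for the libraries so labelled, and every direction is one between labels. The summed FPKM was 555286 to 617120 per library, and the number of reads, and with it the depth behind each value, is unknown.

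In these cells GFI1 was 7.76 times as high in the libraries labelled MSX2-/- as in WT, and GFI1B 2.52 times as high. The group means of the 6 corepressor genes were 0.976 to 1.05 times WT. Differences were tested with limma on log2(FPKM + 1), with p-values adjusted over all genes tested and a threshold of 0.05, in 2 fits, of which the second adds a block for replicate number and so sets each library against those of its own number. Of the 6 corepressor genes 0 passed by limma in either fit, and 0 had an unadjusted p under 0.05. By mean level GFI1 was the lowest of the 8 genes in WT and the fourth highest in MSX2-/-, although in WT replicate 1 GFI1B was lower still. GFI1 passed in both fits, and GFI1B passed with the block alone.

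GFI1 lies on chromosome 1 (chr1:92474762-92486876, minus strand, GRCh38, GENCODE 29). Its level was 3.86 and 3.97 FPKM in WT replicates 1 and 2. In clone 1# it was 26.2 and 35.0 FPKM, and in clone 2# it was 22.8 and 37.6 FPKM. All 4 MSX2-/- libraries were far above both WT libraries, and in each clone replicate 2 was the higher. The mean was 3.92 ± 0.0821 FPKM for WT (SD, n = 2) and 30.4 ± 7.04 FPKM for MSX2-/- (SD, n = 4). The log2 fold change of FPKM + 1 was 2.65 with a standard error of 0.23 and a 95% interval of 2.11 to 3.19 (limma, adjusted p = 0.0100). Against WT of its own replicate number, the fold was 6.80 and 8.80 in clone 1# and 5.90 and 9.47 in clone 2#.

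GFI1 ranked 16th by p-value and 18th by log2 fold change among the 15895 genes tested. Of all genes tested, 1.28% passed the threshold of an adjusted p under 0.05 in this comparison, and 1 of the 8 genes, GFI1, did. In the blocked fit the standard error of GFI1 was 0.14 and its adjusted p was 0.00109 by limma. Without the block, GFI1 no longer passed when WT replicate 1, WT replicate 2 or either library of clone 1# was left out (limma, adjusted p = 0.0538 to 0.0818), with log2 fold changes of 2.57 to 2.71. With the block, GFI1 passed without any 1 of the 6 libraries, with adjusted p-values of 0.00736 to 0.0117.

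GFI1B lies on chromosome 9 (chr9:132944000-132991687, plus strand, GRCh38, GENCODE 29). Its level was 2.70 FPKM in WT replicate 1 and 6.50 FPKM in WT replicate 2. Clone 1# had 7.40 and 14.6 FPKM, and clone 2# had 7.17 and 17.3 FPKM. The 4 MSX2-/- libraries were again above both WT libraries, but replicate 1 of either clone was close to WT replicate 2. In each of the 3 lines replicate 2 was the higher. The mean was 4.60 ± 2.69 FPKM for WT (SD, n = 2) and 11.6 ± 5.12 FPKM for MSX2-/- (SD, n = 4).

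The log2 fold change of GFI1B was 1.17 with a standard error of 0.45 and a 95% interval of 0.10 to 2.23, and it did not pass the test (limma, adjusted p = 0.366). With the block the same fold change had a standard error of 0.11 and an interval of 0.91 to 1.43, and it passed (limma, adjusted p = 0.00290). Within a replicate number, the fold over WT was 2.74 and 2.25 in clone 1# and 2.66 and 2.65 in clone 2#. These 4 folds were closer together than the levels they come from. Leaving out WT replicate 1 gave an unblocked log2 fold change of 0.66, and leaving out WT replicate 2 gave 1.68, while the blocked value stayed between 1.12 and 1.21 without any 1 of the 6 libraries. Of all genes tested, 9.85% passed with the block, and 2 of the 8 genes did, GFI1 and GFI1B. The exons of GFI1B overlap TSC1, a gene on the other strand, and whether the authors counted by strand is not given. TSC1 was between 7.27 and 9.55 FPKM in the 6 libraries and did not pass the test (log2 fold change -0.25, limma, adjusted p = 0.581).

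**Figure D1:**
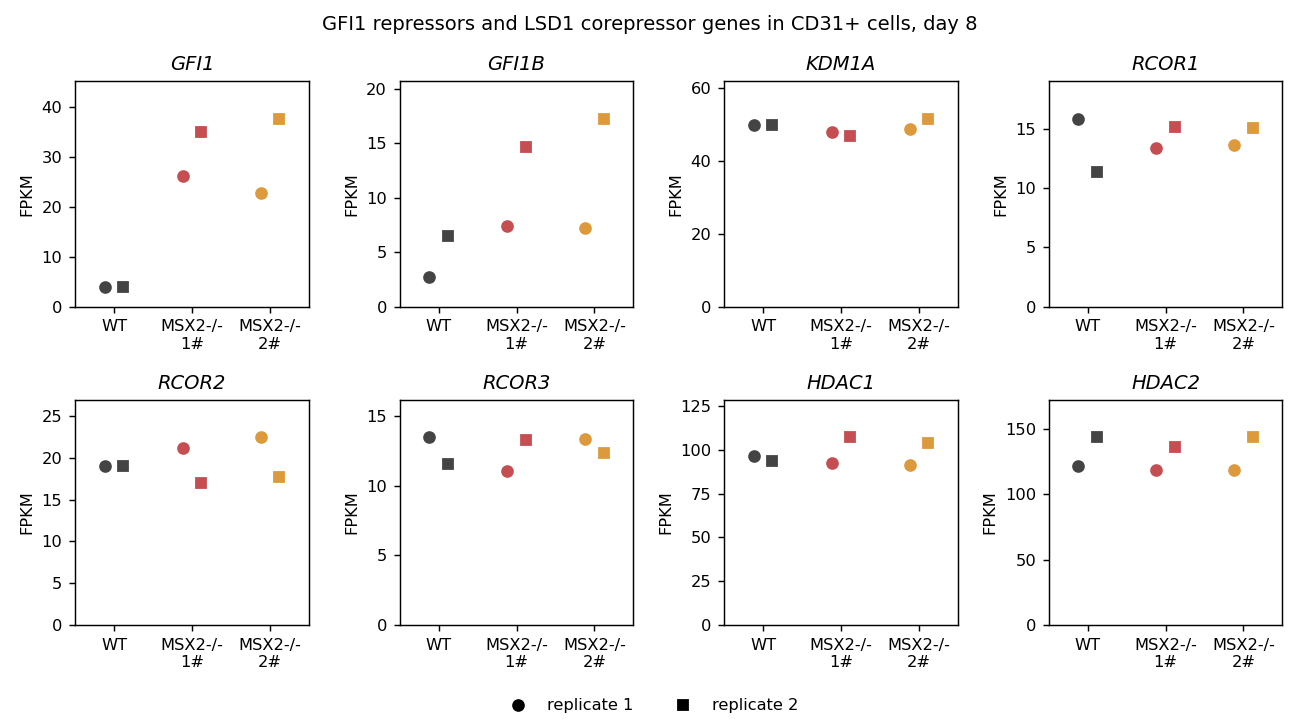
FPKM of the 8 genes in each library, with an axis from 0 in each panel. Grey points are WT, red points clone 1# and orange points clone 2#, with circles for replicate 1 and squares for replicate 2. GFI1 separates the genotypes (3.86 and 3.97 against 22.8 to 37.6 FPKM), GFI1B differs by genotype and by replicate number, and the ranges of WT and MSX2-/- overlap in the other 6 panels.

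All 4 MSX2-/- libraries were above both WT libraries for 2 of the 8 genes, GFI1 and GFI1B, and for 12.1% of all genes tested. All 4 were below both WT libraries for none of the 8 genes and for 9.19% of all genes tested. For a single value the 6 libraries can be split into 2 and 4 in 15 ways, so the smallest p that an exact permutation test could give is 0.0667.

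The 2 clones gave like values for the repressors. With the block, GFI1 was higher than WT by 2.67 on the log2 scale in clone 1# and by 2.62 in clone 2#, and GFI1B by 1.12 and 1.21. All 4 of these passed the test (limma, adjusted p = 0.00987 and 0.00874 for GFI1, and 0.0237 and 0.0184 for GFI1B). Both clones were set against the same 2 WT libraries, with a spread shared over the 3 groups. The results of the 2 clones are therefore not independent of each other. Of all genes tested, 3.46% passed with the block for clone 1# and 3.71% for clone 2#, and in both clones GFI1 and GFI1B were the members of the 8 that did. Without the block, the 3-group fit gave adjusted p-values of 0.119 and 0.118 for GFI1 and 0.797 and 0.759 for GFI1B. Clone 2# minus clone 1# was -0.05 for GFI1 (95% interval with the block -0.49 to 0.40) and 0.09 for GFI1B (-0.26 to 0.44). Of all genes, 0 passed in that comparison by limma with the block, and 530 had an unadjusted p under 0.05, which does not show that the clones are alike.

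Sequence upstream of the repressor genes is shown because RUNX, GATA and ETS factors and GFI1 proteins themselves are known regulators of these genes. The sequences are RefSeq's, build GRCh38.p14, from the 250 bases before a gene start, and 7 of the 8 genes were matched with 11 such windows. The stretches shown lie within the spans given above for GFI1 and GFI1B. Upstream here means before a start inside the annotated gene. The motifs searched on both strands were TGTGGT for RUNX factors, GATAAG for GATA factors, GGAAGT for ETS factors, CCAAT for NF-Y, AAATCA for GFI1 proteins and TAATTG for MSX factors, and none of these contains another. The window before the second of 3 GFI1 starts (chr1:92486100-92486349, read on the minus strand, outside annotated exons) holds the NF-Y, ETS and RUNX letters, in capitals. Those for ETS and RUNX begin 59 and 47 bases before the start. The windows before the other GFI1 starts hold none of the motifs searched and are not shown. In the window before the second of 2 GFI1B starts, 30 bases (chr9:132978567-132978596, plus strand) hold GATAAG, beginning 115 bases before the start, and a further 30 bases (chr9:132978655-132978684) hold AAATCA, beginning 31 bases before it. That window also holds the CCAAT letters on the minus strand, beginning 79 bases before the start. No more of that window is shown, since 187 of its 250 bases lie in annotated exons.
GFI1 upstream window: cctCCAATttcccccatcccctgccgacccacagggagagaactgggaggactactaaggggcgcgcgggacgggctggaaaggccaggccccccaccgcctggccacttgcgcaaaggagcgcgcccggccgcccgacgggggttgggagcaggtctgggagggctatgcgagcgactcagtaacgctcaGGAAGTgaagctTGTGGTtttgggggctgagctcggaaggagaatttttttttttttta
GFI1B upstream, GATA letters: ctggaaagttttGATAAGcaaatacggctg
GFI1B upstream, GFI1 letters: cagattgaAAATCAgggaggggaacagaag
The same GFI1 letters are also in the window before the first GFI1B start, 170 bases before it (chr9:132945349-132945378, plus strand).
GFI1B upstream of the first start, GFI1 letters: gagacagcttgaAAATCAgaacgccttatt

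Such short motifs are common. TGTGGT is in 11.0% of 35116 windows of all genes, GATAAG in 5.65%, GGAAGT in 19.5%, CCAAT in 32.0%, AAATCA in 11.6% and TAATTG in 6.70%. In the windows of KDM1A, RCOR1, RCOR3, HDAC1 and HDAC2, CCAAT was the 1 motif of the 6 that occurred (RCOR1, RCOR3 and HDAC1), and TAATTG was in none of the 11 windows. A match is a description of letters and does not show a site in use.

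KDM1A encodes LSD1, the demethylase that carries out histone demethylation in the complex (chr1:23019443-23083689, plus strand). Its level was 49.9 FPKM in both WT libraries, 47.9 and 46.7 FPKM in clone 1#, and 48.6 and 51.5 FPKM in clone 2#. The WT level lay inside the range of the MSX2-/- libraries. The log2 fold change was -0.04 with a 95% interval of -0.28 to 0.21 (limma, adjusted p = 0.963), and the blocked interval was -0.21 to 0.14.

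RCOR1 encodes CoREST, the scaffold that joins LSD1 to HDAC1 or HDAC2 and lets it act on nucleosomes, and RCOR2 and RCOR3 encode related proteins. RCOR1 (chr14:102592661-102730576, plus strand) was at 15.8 and 11.4 FPKM in WT, 13.4 and 15.1 FPKM in clone 1# and 13.6 and 15.1 FPKM in clone 2#. RCOR2 (chr11:63911221-63916844, minus strand), known from embryonic stem cells and neural progenitors, was at 19.0 FPKM in both WT libraries, 21.2 and 16.9 FPKM in clone 1# and 22.5 and 17.7 FPKM in clone 2#. RCOR3 (chr1:211258377-211316385, plus strand) was at 13.5 and 11.6 FPKM in WT, 11.1 and 13.3 FPKM in clone 1# and 13.3 and 12.3 FPKM in clone 2#. For all 3 genes the WT and MSX2-/- ranges overlapped. Their log2 fold changes were 0.08 (95% interval -0.32 to 0.48) for RCOR1, 0.03 (-0.34 to 0.41) for RCOR2 and -0.0028 (-0.35 to 0.35) for RCOR3, and the limma adjusted p was at least 0.942 in each.

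HDAC1 and HDAC2, the deacetylases shared by the CoREST, NuRD and SIN3 complexes, had the highest levels of the 8 genes. HDAC1 (chr1:32292086-32333635, plus strand) was at 96.7 and 94.0 FPKM in WT, 92.3 and 107 FPKM in clone 1# and 91.3 and 104 FPKM in clone 2#. HDAC2 (chr6:113933028-114011308, minus strand) was at 121 and 144 FPKM in WT, 119 and 136 FPKM in clone 1# and 119 and 144 FPKM in clone 2#. The genotypes overlapped in both genes, and HDAC2 was lower in replicate 1 than in replicate 2 of every line. The log2 fold change was 0.05 (95% interval -0.22 to 0.31) for HDAC1 and -0.03 (-0.34 to 0.28) for HDAC2, with limma adjusted p-values of 0.949 and 0.971. With the block the interval of HDAC2 was -0.17 to 0.11. HDAC2 overlaps the antisense gene HDAC2-AS2, which lay between 0.886 and 2.21 FPKM.

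**Figure D2:**
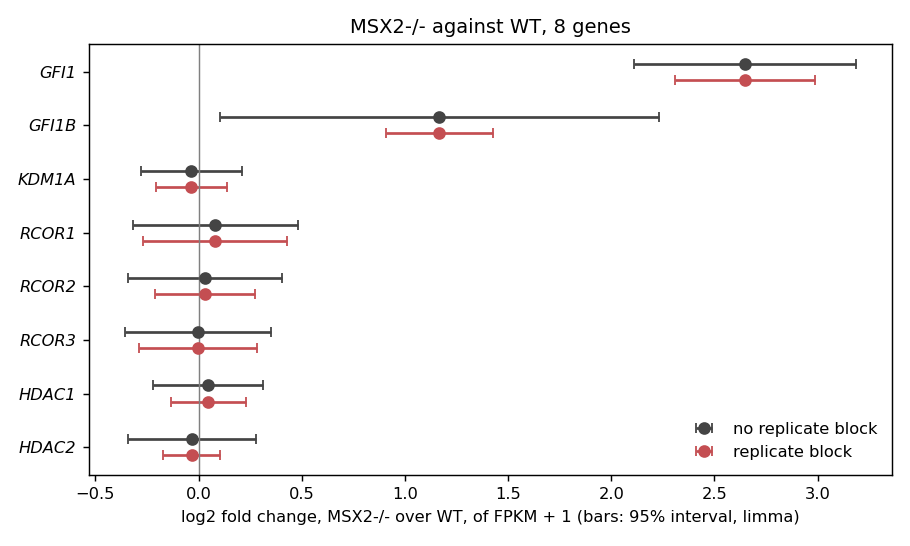
Log2 fold change of FPKM + 1, MSX2-/- over WT, for each gene, with its 95% interval from limma (6 libraries). Grey is the fit without and red the fit with the replicate block. The GFI1 interval (2.11 to 3.19) is far from 0 in both fits, the GFI1B interval shrinks from 0.10 to 2.23 down to 0.91 to 1.43, and the intervals of the other 6 genes span 0.

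By mean level, the order in WT was HDAC2 (132 FPKM), HDAC1 (95.3), KDM1A (49.9), RCOR2 (19.0), RCOR1 (13.6), RCOR3 (12.5), GFI1B (4.60) and GFI1 (3.92). The levels of RCOR1 and RCOR3 overlapped, as did those of GFI1B and GFI1, and the other neighbours did not. In MSX2-/- the order was HDAC2 (129 FPKM), HDAC1 (98.8), KDM1A (48.7), GFI1 (30.4), RCOR2 (19.6), RCOR1 (14.3), RCOR3 (12.5) and GFI1B (11.6). GFI1 was above RCOR2 in every MSX2-/- library, in clone 2# replicate 1 by little (22.8 and 22.5 FPKM). The range of GFI1B overlapped those of RCOR1 and RCOR3, and at its upper end that of RCOR2. RCOR1 (13.4 to 15.1 FPKM) and RCOR3 (11.1 to 13.3 FPKM) met at their limits.

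The balance between the repressors and between repressors and corepressors followed from these levels. GFI1 and GFI1B together made 6.56 and 10.5 FPKM in WT and 29.9 to 54.9 FPKM in MSX2-/-. GFI1B was 41.2% and 62.1% of that sum in WT replicates 1 and 2, 22.0% and 29.5% in clone 1#, and 23.9% and 31.4% in clone 2#. Both WT shares were above all 4 MSX2-/- shares. Without WT replicate 1 the mean share differed by -35.4 percentage points, and without WT replicate 2 by -14.4 points. KDM1A mRNA was 7.61 and 4.76 times the sum of GFI1 and GFI1B in WT and 0.939 to 1.62 times that sum in MSX2-/-, again without overlap. HDAC2 was 55.7% and 60.4% of HDAC1 plus HDAC2 in WT and 55.9% to 58.0% in MSX2-/-, and RCOR2 was 39.3% and 45.3% of the 3 RCOR genes in WT and 37.4% to 46.4% in MSX2-/-. Both of these shares overlapped between genotypes.

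The replicate numbers, which carry the letters F and S, differed as well. In a fit with genotype as a covariate, GFI1B was higher in replicate 2 than in replicate 1 by 1.03 on the log2 scale (standard error 0.10, limma, adjusted p = 0.00173), and HDAC2 by 0.24 (standard error 0.05, adjusted p = 0.0192). Of all genes tested, 34.6% passed in this comparison, and 2 of the 8 genes did. GFI1 differed by 0.38 (limma, adjusted p = 0.0700) and RCOR2 by -0.21 (adjusted p = 0.135), and both of these passed as well when either WT library was left out. HDAC2 no longer passed when clone 1# replicate 1 or either library of clone 2# was left out (limma, adjusted p = 0.0620 to 0.0813). The difference by genotype was thus the larger for GFI1, while for GFI1B the genotype and the replicate number had log2 differences of like size, 1.17 and 1.03. What F and S stand for was not tested.

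Whether the difference by genotype depended on the replicate number was examined by an interaction term, chosen after the data were seen. By limma 0 of the 8 genes passed, and 2 of them, RCOR1 and GFI1, had an unadjusted p under 0.05. Over all genes tested, 3 passed and 1817 had an unadjusted p under 0.05. GFI1 had a genotype difference that was larger by 0.52 in replicate 2 (standard error 0.18, limma, adjusted p = 0.421), and for GFI1B the term was 0.0078 (standard error 0.21). RCOR1, RCOR2, RCOR3 and HDAC1 moved opposite ways from the WT library of their number in replicates 1 and 2, as did 17.7% of all genes tested. Clone 1# and clone 2# replicate 1 were at 0.843 and 0.861 times WT for RCOR1, and both replicates 2 at 1.33 times WT (interaction 0.60, standard error 0.13, limma, adjusted p = 0.351).

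**Figure D3:**
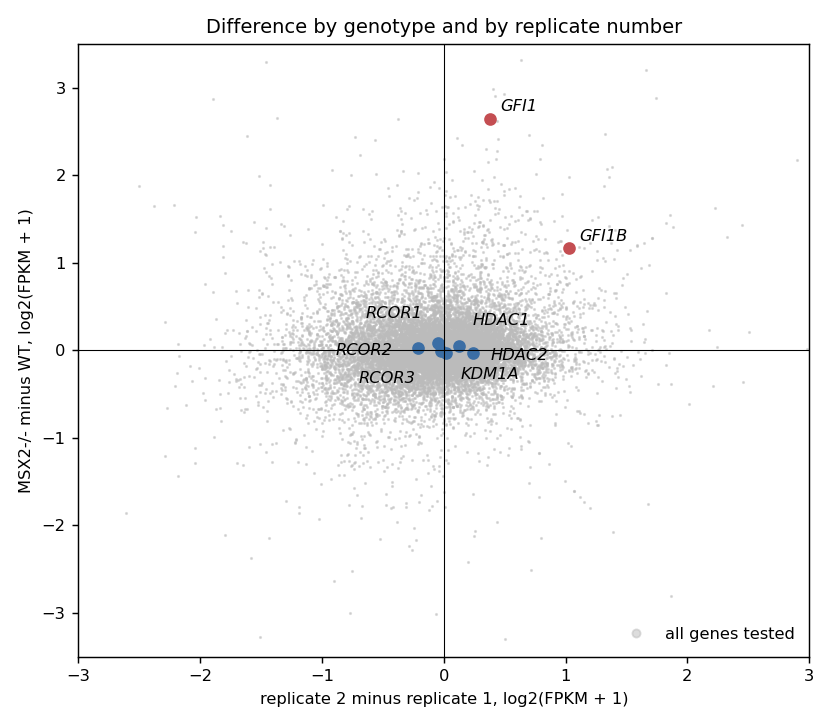
Each point is a gene, with its log2(FPKM + 1) difference between replicates 2 and 1 on the horizontal axis and between MSX2-/- and WT on the vertical axis, both from limma fits of 6 libraries. Grey points are all 15895 genes tested (16 lie outside the axes), red points are GFI1 and GFI1B and blue points the 6 corepressor genes. GFI1 is displaced mainly along the genotype axis (2.65 and 0.38), GFI1B along both axes (1.17 and 1.03), and the corepressor genes lie near the origin.

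Some markers of blood cells were higher in MSX2-/- together with the repressors. Of 11 such markers, 9 were tested, and KLF1 (1.85 on the log2 scale) and GYPB (1.60), both of the erythroid lineage, rose in MSX2-/- without the block (limma, adjusted p = 0.0394 and 0.0100). With the block, where 9.85% of all genes tested passed (1.28% without it), 5 of the 9 rose and 0 fell. An unadjusted limma p under 0.05 was found for 6 of the 9 without the block and for 9 with it, beside 1873 and 4247 of all 15895 genes tested. The log2 fold change was above 0 for 8 of the 9. The median log2 fold change was 0.81, beside 0.0081 over all genes tested. The summed level of the markers was 112 to 123 FPKM in WT and 228 to 347 FPKM in MSX2-/-. PF4, a platelet chemokine gene, was at 2.26 and 3.41 FPKM in WT and 1.30 to 2.42 FPKM in MSX2-/- (log2 fold change -0.43), and it, HBE1, ITGA2B and GP9 passed in neither fit. PTPRC was at or near 0 and CD33 under 1 FPKM in all libraries. In bulk RNA, more cells of a type and more RNA per cell cannot be told apart.

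The ratio of each repressor to the blood genes SPN and RUNX1 was listed library by library. GFI1 was 0.623 and 0.351 times SPN in WT and 1.52 to 2.27 times SPN in MSX2-/-, so the ratio was higher in all 4 MSX2-/- libraries. GFI1 was 0.344 and 0.156 times RUNX1 in WT and 0.629 to 0.903 times RUNX1 in MSX2-/-, again without overlap. GFI1B was 0.436 and 0.574 times SPN in WT and 0.479 to 0.990 times SPN in MSX2-/-, and 0.241 and 0.256 times RUNX1 in WT and 0.223 to 0.293 times RUNX1 in MSX2-/-. Both of the GFI1B ratios overlapped between genotypes. The part of blood cell number in either result was not tested.

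**Figure D4:**
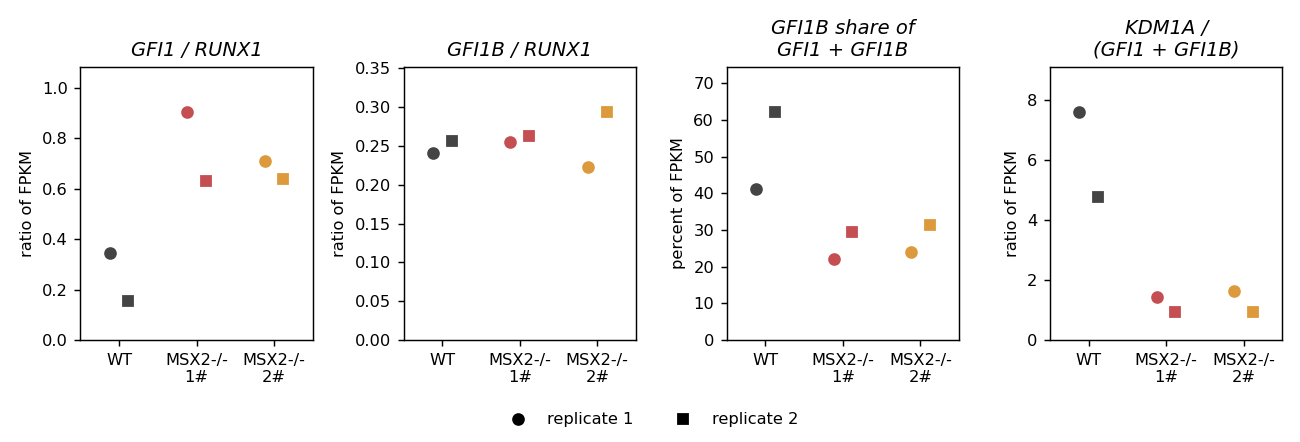
Ratios of FPKM in each library, with axes from 0, for GFI1 over RUNX1, GFI1B over RUNX1, the percent of GFI1B in GFI1 plus GFI1B, and KDM1A over GFI1 plus GFI1B. Grey is WT, red clone 1#, orange clone 2#, circles replicate 1 and squares replicate 2. The genotypes are apart in each panel except GFI1B over RUNX1, where all 6 libraries lie between 0.223 and 0.293.

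Other cell type markers gave the following, beside 1.28% of all genes tested that passed by genotype without the block and 9.85% with it. Of 8 mesenchymal markers tested, COL1A1 (2.30) and TAGLN (1.94) rose without the block (limma, adjusted p = 0.0152 and 0.0300), 4 rose with it and 0 fell, with a summed level of 279 to 337 FPKM in WT and 500 to 575 FPKM in MSX2-/-. The log2 fold change was above 0 for 6 of the 8, and the lowest was -0.54. DCN and POSTN, 2 defining mesenchymal genes, stayed under 1 FPKM. Of 6 pluripotency markers tested, 0 passed without the block (0 at an unadjusted p under 0.05) and 1, LIN28A, with it (0.45, with 4 unadjusted). All 6 log2 fold changes were above 0 (median 0.38), NANOG and SOX2 were at or near 0, and the sum was 65.1 to 74.9 FPKM in WT and 85.2 to 102 FPKM in MSX2-/-. Of 6 hepatic endoderm markers, 0 passed without the block (0 unadjusted) and SOX17, also an endothelial gene, passed with it (0.44, with 2 unadjusted), with sums of 205 to 311 FPKM and 330 to 546 FPKM. For 4 of these 6 the log2 fold change was above 0, and the lowest was -0.49. Of 17 proliferation genes, 0 passed without the block (0 unadjusted) and 1, MCM5, was lower with it (-0.51, with 5 unadjusted). Of the 17, 15 passed as higher in replicate 2 than in replicate 1, as did 2486 of all 15895 genes tested. The sum over the proliferation genes was 352 and 689 FPKM in WT replicates 1 and 2, and GFI1B and HDAC2 were higher in replicate 2 as well. The part of these markers in the repressors' values was not tested.

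The genes around the complex were read by lists of known partners, beside 1.28% of all genes tested that passed by genotype without the block and 9.85% with it. Of 9 other subunits and partners of LSD1 and CoREST, among them HMG20B, PHF21A and CTBP1, 0 passed the limma test by genotype without or with the block, 2 had an unadjusted p under 0.05 in either fit, and their log2 fold changes ran from -0.38 to 0.44 with a median of -0.10. Of those 9, 1 had a log2 fold change above 0, as did 8149 of all 15895 genes tested. Between replicate numbers, 5 of the 9 passed as lower in replicate 2 than in replicate 1, as did 3006 of all 15895 genes tested. Of 9 other histone deacetylases, 0 passed in either fit (-0.27 to 0.50, median -0.06), and 0 and 2 had an unadjusted p under 0.05 without and with the block. Of 25 tested subunits of the NuRD, SIN3 and MiDAC complexes, which also hold HDAC1 or HDAC2, 0 passed without the block (0 unadjusted), and 1, the remodeler gene CHD3, was lower with it (-0.51, limma, adjusted p = 0.0138, with 3 unadjusted), with a list median of -0.0011. CHD3 also differed between replicate numbers, at 73.5 and 42.3 FPKM in WT, 50.6 and 27.5 FPKM in clone 1# and 56.2 and 29.1 FPKM in clone 2#. Of 10 other zinc finger factors with a SNAG domain, 7 were under 1 FPKM in every library, and of SNAI1, SNAI2 and SNAI3, which were tested, 0 passed in either fit (0.36, 0.42 and 0.83), and 0 and 2 did so unadjusted.

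The genes known as targets of GFI1 or GFI1B that passed the test went both ways. Of 13 tested, 1 rose and 1 fell without the block (1.28% of all genes tested passed), and 3 rose and 1 fell with it (9.85% of all passed). The median log2 fold change of the 13 was 0.24. The gene that fell was TGFBR3, the TGFβ coreceptor betaglycan and a GFI1B target of erythroid and megakaryocytic cells. It was at 35.4 and 18.1 FPKM in WT, 3.72 and 2.29 FPKM in clone 1# and 6.01 and 1.96 FPKM in clone 2#. Its log2 fold change was -2.64 (standard error 0.42, limma, adjusted p = 0.0426), and every MSX2-/- library was below both WT libraries.

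ID2, an inhibitor of bHLH factors, was at 52.2 and 63.8 FPKM in WT, 124 and 148 FPKM in clone 1# and 116 and 178 FPKM in clone 2#. It rose by 1.26 on the log2 scale (standard error 0.19, limma, adjusted p = 0.0404), and the genotypes did not overlap. With the block CDKN1A, the cell cycle inhibitor p21, and BCL2L1, which encodes the survival protein BCL-xL, also rose, by 0.96 and 0.58 (limma, adjusted p = 0.0133 and 0.00618). CDKN1A was at 98.7 and 58.4 FPKM in WT and 89.7 to 258 FPKM in MSX2-/-, so the genotypes overlapped when replicate numbers were not matched. ELANE, the neutrophil elastase gene repressed by GFI1, was listed at 0 in all 6 libraries.

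Of 14 blood transcription factors of EHT, 2 rose without the block, GATA2 (1.28, limma, adjusted p = 0.0152) and GATA1 (1.15, adjusted p = 0.0220). With the block, where 9.85% of all genes tested passed (1.28% without it), 7 rose and 1 fell, and the list median was 0.42. The one that fell with the block was ERG (-0.58), an ETS factor of endothelium and blood. RUNX1, the known activator of both GFI1 genes, was at 11.2 and 25.4 FPKM in WT, 29.1 and 55.6 FPKM in clone 1# and 32.1 and 58.8 FPKM in clone 2#, and its log2 fold change of 1.25 passed with the block (limma, adjusted p = 0.00163) and not without it (adjusted p = 0.285).

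Of 20 endothelial genes, CLDN5 (-2.28, a tight junction gene), CDH5 (-0.65, VE-cadherin) and TIE1 (-0.58, an endothelial receptor kinase) fell without the block (limma, adjusted p = 0.0121, 0.0453 and 0.0382), and 0 rose. With the block, where 9.85% of all genes tested passed (1.28% without it), 9 fell and 2 rose, ENG (0.70) and SOX17 (0.44). The median over the 20 genes was -0.41, beside 0.0081 over all genes tested, and ERG stands in this list as well as among the blood factors. CDH5 was between 230 and 269 FPKM in MSX2-/-, against 423 and 379 FPKM in WT, and the list's summed level was 8079 to 8995 FPKM against 9710 and 10649 FPKM.

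**Figure D5:**
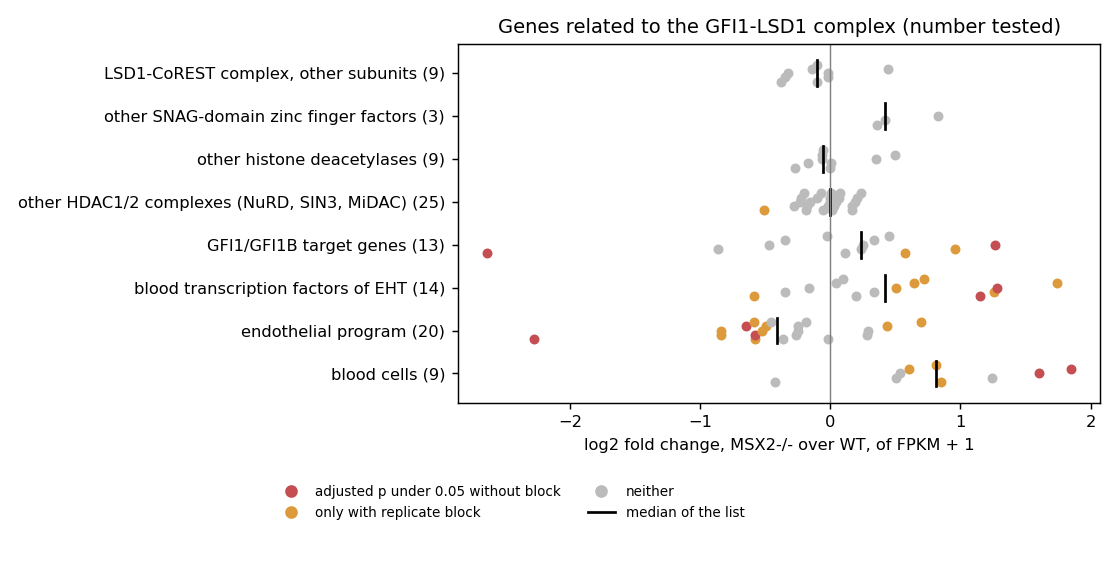
Log2 fold change of FPKM + 1, MSX2-/- over WT, of each tested gene in 8 lists, with the number tested in brackets and a black bar at the median. Red points passed the test without the block, orange points with it alone, and grey points in neither fit (limma, 6 libraries). The lists of complex subunits and deacetylases have medians of -0.10, -0.06 and -0.0011, the endothelial list has a median of -0.41, and the blood marker list one of 0.81.

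The genes with profiles most like those of GFI1 and GFI1B were listed by the root mean square difference of centred log2(FPKM + 1) values over the 6 libraries. For GFI1 they were CTSV (0.21), SH2D2A (0.22), HIST1H1C (0.24), TMEM40 (0.24) and NTRK3 (0.24), out of 13942 genes that averaged 1 FPKM or more. CTSV, a lysosomal protease gene, was at 4.78 and 6.88 FPKM in WT and 40.4 to 62.4 FPKM in MSX2-/-. For GFI1B they were ZAP70 (0.093), TMEM132C (0.095), RUNX1 (0.101), TMBIM1 (0.116) and ENC1 (0.120). The genes were chosen by these same values, so a shared pattern follows from the choice. Those nearest to GFI1 had a low level in both WT libraries. Those nearest to GFI1B were higher in replicate 2 of each line and had a higher mean in MSX2-/- than in WT.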

How the data were processed

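RNA-seq of 6 libraries of H1-derived cells at day 8 was used, 2 WT and 4 MSX2-/-. The authors deposited 1 table of FPKM values, with 1 column per library. The design text names BWA, TopHat and Cufflinks, and the submitters' processing notes name BWA, Bowtie, RSEM and hg19. Versions, annotation and strand are not given in the sources used here, so positions are those of GENCODE 29. Such programs share reads between transcripts, and FPKM are relative within a library.

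log2(FPKM + 1) was tested with limma 3.58.1 in R 4.3.3, with a mean-variance trend, for 15895 of 58364 genes (mean of at least 0.5 FPKM), with Benjamini-Hochberg adjustment and a threshold of 0.05. The pseudocount understates the change of low genes. The fits were tested on simulated data. 1 line without values was left out. Libraries with the same number deviated together. Across genes, the replicate differences correlated at 0.51 (WT and 1#), 0.54 (WT and 2#) and 0.64 (1# and 2#), so the replicate block was used beside the unblocked fit.

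The genes and lists were chosen with earlier results of these data known. Named are the 8 genes, MSX2, at most 4 genes per list past the threshold, markers near 0, and the 5 nearest profiles. PECAM1, SPN, PF4, HBE1, ITGA2B, GP9, TSC1, HDAC2-AS2, ELANE, RUNX1 and the examples of subunits were added for context. MIDEAS was matched through its older symbol. 1 blood marker is not reported here, and the counts and sums of its list leave it out.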

Additional observations from a re-analysis of the deposited data

Results flagged for a closer look

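The summed FPKM of RCOR1, RCOR2 and RCOR3 had a library apart from the rest in MSX2-/-. Clone 2# replicate 1 was at 49.4 FPKM and the other 3 MSX2-/- libraries lay between 45.2 and 45.6 FPKM, so its gap to the nearest was 0.903 of the range of the 4. The WT libraries were at 48.3 and 42.0 FPKM, on both sides of the other 3. A gap past the 95% critical value used arises by chance in about 1 in 20 groups, and 21 quantities were looked at.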

How the results depend on the processing

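The number of genes passing MSX2-/- against WT was 204 (153 higher, 51 lower). It was 1566 with the replicate block (971 and 595), 125 with no filter on low values (65 and 60), 507 with the block and no filter, 6 with WT and the clones as 3 groups, and 11 to 76 when a library was left out, 11 without either library of clone 1#. Without WT replicate 1 the split was 13 higher and 20 lower. Of the 8 genes, 1 passed, 2 with the block (filtered or not), 0 in 3 groups (GFI1 adjusted p = 0.0621 by limma) and 0 to 1 without a library. GFI1 passed in 8 of 13 alternatives, with log2 fold changes of 2.54 to 2.90, and GFI1B in 2 of 13, both with the block, with 0.66 (without WT replicate 1) to 1.68 (without WT replicate 2). With the block, each of the 6 fits without a library passed both. Without the block, the log2 fold changes that changed sign when a library was left out were those of RCOR1 (-0.14 to 0.30), RCOR2 (-0.035 to 0.094), RCOR3 (-0.10 to 0.098) and HDAC2 (-0.15 to 0.087), none of which passed the test. With the block, RCOR1, RCOR2, RCOR3 and HDAC1 (-0.073 to 0.17) changed sign when a library was left out, and KDM1A and HDAC2 did not. For replicate 2 against 1, 5492 genes passed, 3593 with no filter and 3091 to 4707 without a library, and 2 of the 8 genes, 1 to 4 without a library. For clone 1# against WT 1 gene passed, 550 with the block, 0 with no filter and 0 with a pseudocount of 0.1. For clone 2# against WT 1 passed, 590 with the block and 0 with no filter, and between the clones 0 passed and 1 with a pseudocount of 0.1 (1172, 1181 and 225 genes at an unadjusted limma p under 0.05 in these comparisons without the block). The blocked fit changed no call of the 8 genes other than that of GFI1B and those of GFI1 and GFI1B in each clone. Where calls were lost the cause was not tested, except that fits without a library or with 3 groups have fewer residual degrees of freedom. The depth is unknown, so no limit of detection is given.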
